A study of Mus musculus with 33 samples.

Results

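Uterine tissue taken on day 12 after fertilization was compared with the uterus of non-pregnant mice. The comparison rests on the 5 arrays labelled day 12 and the 6 arrays labelled as controls, chosen by their labels and not by any measured value, which are 11 of the 33 arrays of the series. The other 22 arrays come from days 4, 6, 8, 10 and 11, and those of days 8 and 11 serve below to place the day 12 values in the course of pregnancy. Both groups were C57BL/6 mice aged 8 weeks with no genetic change or treatment named, so mating and the days since fertilization are what set them apart in the labels. Each array measured total RNA of whole tissue with single-colour Illumina bead arrays. The labels do not say whether embryos and placentas were taken out of the day 12 tissue, nor whether each array stands for a separate animal. The p-values and SE therefore rest on the spread between samples, which may in part be technical. That spread is pooled over the 7 groups of all 33 arrays and is not that of the compared groups alone.

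In the mouse the embryo implants into the uterine wall, and the stroma around it turns into decidua, a tissue of large secretory cells rich in uterine natural killer cells. By mid-gestation the placenta has taken over: giant cells and the cells of the junctional zone secrete hormones of the prolactin family, the labyrinth exchanges nutrients with maternal blood, the yolk sac secretes carrier proteins and releases the primitive red cells that carry embryonic globins. The non-pregnant uterus, by contrast, is mostly muscle, collagenous stroma and an epithelium whose secretions follow the oestrous cycle.

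The values are log2 of background-corrected, quantile-normalized intensity, in which a probe at background reads about 4 to 5, and they are compared between arrays and not between probes. A gene is said to have risen or fallen when limma's moderated test gave a Benjamini-Hochberg adjusted p under 0.05 over the 10412 genes tested, and to have changed when it also differed at least 2-fold. For genes that were at background on every array of 1 group, the text gives a bound, at least so many fold, computed against the lowest signal each array could detect. For the genes whose array values are given, no array of either group reached the range of the other unless an overlap is stated. The day 12 arrays detected 16341 to 18692 probes. Of the non-pregnant arrays, 5 detected 17410 to 18152 probes and array 4 detected 13097. On the leading principal component, which held 72.3% of the variance of the 11 arrays, the day 12 arrays lay between 68.81 and 72.76 and the non-pregnant arrays between -68.53 and -50.64. Non-pregnant array 4 stood alone on the next component, at -72.86, and exceeded or fell below every other non-pregnant array by more than 2-fold for 339 and 542 genes. Non-pregnant array 6 did so for 192 and 154 genes, and day 12 array 1 for 28 and 25. Where leaving out array 4 or 6 changed the call of a named gene, or a list's count by over 1.5 times, the value without it is given.

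At day 12, 2927 genes had changed, 28.1% of those tested, with 1469 higher (14.1%) and 1458 lower (14.0%). Without non-pregnant arrays 4 and 6 the number was 2958, of which 2690 were among the 2927. Counted by the adjusted p alone, 3311 genes rose (31.8%) and 3016 fell (29%), and in 3703 (35.6%) the groups did not overlap. Each list count below that sets day 12 against the non-pregnant uterus is to be read beside these shares. A gene that no non-pregnant array detected was kept through arrays of pregnancy, so it could rise but hardly fall. Likewise, a gene that no day 12 array detected could hardly rise. Counts of lists rich in such genes were therefore partly set by the choice of probes. The median difference over the genes tested was 0.03. The rises reached further than the falls: 249 genes were at least 8-fold higher and 118 at least 8-fold lower, and at 32-fold the numbers were 68 and 10. The values are relative to all RNA on an array. Fewer cells of a type, less RNA per cell and dilution by RNA of other tissue therefore cannot be told apart in whole tissue. This holds for every difference below.

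Among genes that changed without overlap and that at least 1 array of each group detected, the largest rise was that of Sct, which encodes the peptide hormone secretin. Its day 12 values were 14.29, 14.55, 14.54, 14.60 and 14.72, and the non-pregnant values ran from 4.34 to 6.14 with a median of 4.57. The groups were far apart, by 9.75 ± 0.32 (SE) on the log2 scale (adjusted p = 3.49e-22), although the gene was detected on 1 non-pregnant array, array 6. Next came Dlk1, an imprinted gene for a Delta-like membrane protein of embryonic tissues, at 13.21, 13.09, 13.11, 13.22 and 13.43 on the day 12 arrays. On the non-pregnant arrays Dlk1 ran from 4.49 to 5.61 with a median of 4.67, and the difference was 8.41 ± 0.18 (adjusted p = 2.33e-27). Dlk1, Slc4a1, Ttr, Psg27, Alas2 and Slc13a4 were likewise detected on 1 non-pregnant array each, so the differences and the order of these genes are set against probes mostly at background. The other 8 of the 10 largest rises were Slc4a1 (8.38), Gzmd (8.26), Ttr (8.03), Psg27 (7.68), Ctsr (7.29), Alas2 (6.17), Slc13a4 (5.80) and Igf2 (5.72). By textbook expression these are genes of red cells, uterine natural killer cells, yolk sac and trophoblast, apart from Slc13a4, a sodium and sulfate transporter, and Igf2, the fetal growth factor. Igf2 was well detected in both groups, at 14.59, 14.84, 14.59, 14.79 and 14.96 on the day 12 arrays and from 8.56 to 10.33 with a median of 8.70 on the non-pregnant ones, and no array of 1 group reached the other.

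The 10 largest falls among genes chosen in the same way were of another kind. Cbr2, a carbonyl reductase, read 5.22, 5.41, 5.23, 4.98 and 5.60 at day 12 and from 8.78 to 13.82 with a median of 12.54 in the non-pregnant uterus. The difference was -6.86 ± 0.67 (adjusted p = 2.94e-10), the lowest non-pregnant value was that of array 6, and without it the difference was -7.53. Ltf, the secreted iron-binding protein lactoferrin that oestrogen induces in uterine epithelium, read 7.32, 7.35, 6.37, 6.38 and 7.44 at day 12. Its non-pregnant values ran from 8.59 to 14.92 with a median of 14.83, with array 6 at 8.59 and the other 5 between 14.67 and 14.92, so that the difference was -6.82 ± 0.94 with array 6 and -7.86 without it. Sprr2f, a small proline-rich protein of oestrogen-exposed epithelium, fell by 6.61 (adjusted p = 1.8e-05), with a difference of -7.67 without array 6, and Car12, a membrane carbonic anhydrase, fell by 5.08. Tmem45b, Ovgp1 (an oviduct-type secreted glycoprotein), Adipoq, Rasd2, H2-Eb1 and Cxcl16 fell by 4.49 to 4.77.

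**Figure D1:**
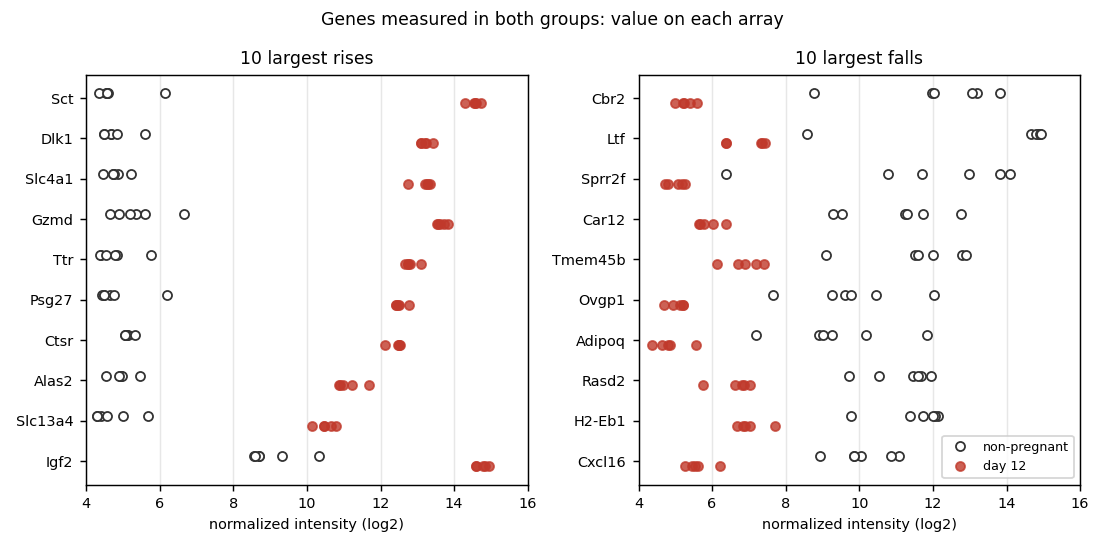
Normalized intensity (log2, horizontal axis) of the 10 largest rises and the 10 largest falls among genes detected in both groups whose arrays do not overlap, with 1 point for each array (open, 6 non-pregnant; filled, 5 day 12). The groups do not overlap for any of the 20 genes, which the choice of genes required, and the spread among non-pregnant arrays is wide for the falls, as for Ltf with 1 array at 8.59 and 5 at 14.67 to 14.92.

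A further 385 of the genes higher at day 12 had no signal above background on any non-pregnant array, and 226 of the lower genes had none on any day 12 array. The bounds of the first kind were led by embryonic globins and placental genes, which are described next. Those of the second kind were led by Ces1d, a carboxylesterase of lipid metabolism, which read from 10.68 to 12.32 with a median of 11.76 on the non-pregnant arrays and was undetected at day 12. Its level was at least 85-fold lower at day 12 (adjusted p = 1.22e-15). Plekhs1 and Fxyd4, a regulator of the sodium pump, followed at no less than 74.7-fold and 66.5-fold. The peptide transporter Slc15a2 and the cytochromes P450 Cyp2e1 and Cyp2f2 were bounded at 18.7-fold, 15.2-fold and 15-fold.

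Red cell genes showed the largest bounds of the comparison. All 14 measured members of the list of 25 rose, beside 31.8% of all genes, with a median of 3.16 (2.83 with undetected genes at their bound). Of the 14, 8 were undetected on every non-pregnant array and were kept through arrays of pregnancy. Their rise was thus largely set by the choice of probes. Hbb-y, an embryonic beta-type globin of primitive red cells, read 14.88, 14.64, 14.92, 14.75 and 14.52 at day 12 and from 4.27 to 4.69 with a median of 4.35 in the non-pregnant uterus. No non-pregnant array detected it, and the level was at least 720.4-fold higher at day 12 (adjusted p = 6.24e-36). Hba-x, the embryonic alpha-type globin, read 14.68, 14.51, 14.77, 14.63 and 14.37 against from 4.26 to 4.96 with a median of 4.43. It was bounded at 648-fold, and Hbb-bh1, another embryonic beta-type globin, at 536-fold. Globin genes resemble each other in sequence, and a probe may read more than 1 of them. Slc4a1, the anion exchanger band 3 of the red cell membrane, read 12.75, 13.21, 13.35, 13.26 and 13.29 at day 12 and from 4.46 to 5.22 with a median of 4.75 in the non-pregnant uterus. Alas2, which starts haem synthesis in red cells, ran from 4.53 to 5.48 with a median of 4.94 without pregnancy and rose by 6.17 ± 0.26 (adjusted p = 1.81e-19). The rises of the list also took in Gata1 and Klf1, transcription factors of red cells. Klf1 was at least 6.27-fold higher, and Gata1 was near background at day 12 and detected there on 4 of 5 arrays.

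GATA1 binds DNA at sites with a GATA core, and red cell promoters are known for such sites. The stretches below are shown because Hbb-y and Hba-x had the 2 largest bounds of the comparison and Klf1 encodes a regulator of globin genes. Each is a stretch of 100 bases from the 250 before the gene's RefSeq start in build GRCm38.p6, written along the gene's strand, with the motif in capitals.
Hbb-y (chr7:103853317-103853416, minus strand): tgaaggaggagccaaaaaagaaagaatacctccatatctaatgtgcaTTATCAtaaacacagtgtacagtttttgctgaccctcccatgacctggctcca
Hba-x (chr11:32276445-32276544, plus strand): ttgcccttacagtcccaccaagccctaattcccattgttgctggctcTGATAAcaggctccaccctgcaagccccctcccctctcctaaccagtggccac
Klf1 (chr8:84901855-84901954, plus strand): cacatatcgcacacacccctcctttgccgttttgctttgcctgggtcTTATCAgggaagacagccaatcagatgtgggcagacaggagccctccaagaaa
The motif searched was AGATAA or TGATAA on either strand, read as TTATCT or TTATCA on the other, in the 250 bases before the start; the 2 forms differ in 1 letter and no site counts as both. RefSeq's table held a promoter for 9 of the 14 measured red cell genes, and 8 of the 9 had the motif, all but Gata1, while 18.8% of 27025 genes with a promoter had it. A match is a run of letters and not a measured binding site.

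Placental prolactin-family hormones were at background in the non-pregnant uterus, and so were most of the glycoproteins described after them. Of the 19 placental prolactin-family hormones listed, 10 were measured, none was detected on a non-pregnant array, and 10 rose, 8 of them past 2-fold, with a median of 4.61 (3.79 with undetected genes at their bound). Each of the 10 was kept because arrays of pregnancy detected it, so the count of rises was largely set by that choice. Prl2b1 read 12.56, 12.86, 12.64, 12.97 and 13.34 at day 12 and from 4.35 to 5.58 with a median of 4.49 in the non-pregnant uterus, at least 197-fold apart. Prl4a1, known for acting on immune cells at the implantation site, was bounded at 114-fold, and Prl2c2, proliferin, which promotes blood vessel growth, at 82.6-fold (adjusted p = 3.15e-25). Prl7a1 passed the test with the smallest difference and was detected on 2 day 12 arrays. Prl8a8, another placental member, was at background at every earlier stage. It read 9.81, 9.71, 9.15, 9.74 and 9.31 on the day 12 arrays, and the means of the groups of days 4 to 11 lay between 4.36 and 4.53. At day 11 it was 4.53 ± 0.08 (SD, n = 4) and undetected, so that the level at day 12 was at least 19.8-fold higher (adjusted p = 4.3e-25). Without non-pregnant arrays 4 and 6, 9 of the 10 hormones rose. Members of this family share sequence, and 1 probe may take up signal of a neighbour.

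Pregnancy-specific glycoproteins are secreted, immunoglobulin-like proteins of trophoblast. All 13 of the 17 listed that were measured rose past 2-fold without overlap, with a median of 4.48. Of these, 11 were undetected on every non-pregnant array, and those 11 could hardly have fallen. Psg23, by contrast, was detected on all 6 non-pregnant arrays, at a mean of 7.27 against 11.7 at day 12. Ceacam11 read 13.41, 13.48, 13.36, 13.63 and 13.33 at day 12 and from 4.25 to 4.52 with a median of 4.39 in the non-pregnant uterus, at least 292-fold apart (adjusted p = 1.37e-31). Psg21 was bounded at 265-fold, Psg19 at 38.2-fold and Psg18 at 31.8-fold. Psg27, at 12.41, 12.48, 12.42, 12.79 and 12.51, rose by 7.68 ± 0.23, with non-pregnant array 4 at 6.21 and the others between 4.44 and 4.76. This group was still climbing between day 11 and day 12, when 10 of the 13 rose and 1 fell, against 3.38% and 3.26% of all genes, and the median over the list was 2.94. Psg21 went from 9.21 ± 0.66 at day 11 to 13.30 ± 0.13 at day 12 (SD, n = 4 and 5), a rise of 4.09 ± 0.18 (adjusted p = 1.41e-17). Near-identical sequences in this family mean that the share of each member is uncertain.

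The placental cathepsins, lysosomal proteases made by trophoblast in rodents, behaved alike: 5 of the 6 measured of 8 listed rose, with a median of 4.99 (4.58 at the bound). Ctsj read 14.14, 14.13, 13.87, 14.03 and 14.37 at day 12 and from 4.34 to 5.43 with a median of 4.51 without pregnancy, at least 464-fold apart. Ctsq was bounded at 185-fold and Ctsm at 3.68-fold, and Ctsr, detected on 3 non-pregnant arrays, rose by 7.29 ± 0.19 (adjusted p = 5.18e-25). Cts7 was undetected in both groups, and at day 12 it was at least 4.87-fold lower than at day 8 (adjusted p = 9.27e-12). Cts6 was at least 1.51-fold higher (adjusted p = 4.5e-10), at values between 5.38 and 6.17.

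Regulators and envelope genes of trophoblast rose in 15 of 18 measured members of 24, with a median of 3.27 (2.66 at the bound), and none fell. Rhox9, a homeobox gene on the X chromosome, read 13.30, 13.34, 13.49, 13.33 and 13.57 at day 12 and was undetected without pregnancy, at least 285-fold lower. Its relative Rhox6 was bounded at 105-fold. Phlda2, an imprinted gene that restrains placental growth, read 11.79, 12.01, 12.04, 11.71 and 12.28 at day 12 and from 4.57 to 4.96 with a median of 4.82 in the non-pregnant uterus, at least 105-fold apart. Plac1, an X-linked gene required for normal placental growth, was bounded at 64.4-fold. The fusogenic envelope genes Syna and Synb, which make the fused cell layers of the labyrinth, were at least 1.71-fold and 6.29-fold higher. Ets2 (-0.00), Ovol2 (-0.06) and Wnt7b (0.46) did not pass the test.

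Genes that carry nutrients across the placenta rose in 8 of 11 measured members of 18. Fabp3, a fatty acid binding protein, read 11.06, 11.07, 11.07, 11.07 and 11.11 at day 12 and from 5.21 to 8.23 with a median of 7.52 without pregnancy. The rise was 3.85 ± 0.30 (adjusted p = 2.56e-12), and the day 12 arrays gave nearly the same value. Slc2a1, the glucose transporter GLUT1, read 12.22, 12.39, 12.56, 12.51 and 12.62 against from 8.97 to 10.87 with a median of 10.35, a rise of 2.40 ± 0.28. Mfsd2a, which carries lysophospholipids with omega-3 fatty acids, rose by 2.28 ± 0.19, and Slc38a4, an imprinted amino acid transporter, was at least 2.02-fold higher. Slc38a2, another amino acid transporter, and Slc40a1, the iron exporter ferroportin, fell (-0.83 and -1.36), and the falls numbered 1 when day 12 array 1 or non-pregnant array 1, 4 or 5 was left out.

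Secreted proteins of the yolk sac and visceral endoderm rose in 15 of 17 measured members of 20, with a median of 3.99 (3.88 at the bound). Apoa1, the main apolipoprotein of high-density lipoprotein, read 13.02, 12.86, 12.91, 12.76 and 13.10 at day 12 and from 4.34 to 4.48 with a median of 4.44 in the non-pregnant uterus, at least 205-fold apart. Apoa2, Apom and Apoa4 were bounded at 148-fold, 104-fold and 47.6-fold. Afp, alpha-fetoprotein, read 9.87, 9.47, 9.98, 10.63 and 10.87 at day 12 and was bounded at 30.2-fold, and it had risen further since day 11, by 1.02 ± 0.19 (adjusted p = 0.000419). Ttr, which carries thyroid hormone, read 12.80, 12.74, 12.75, 12.67 and 13.11 against from 4.38 to 5.76 with a median of 4.66, with the highest non-pregnant value on array 6. Sox17 was the member that fell (-2.24); this transcription factor also belongs to endothelium and uterine glands.

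Genes of embryonic organs were raised as well. All 11 measured members of 20 rose, with a median of 2.71 (2.49 at the bound). Of the 11, 7 were undetected on every non-pregnant array and could hardly have fallen. Col2a1, the collagen of cartilage, read 10.86, 10.41, 10.47, 10.63 and 10.31 at day 12 and from 4.33 to 4.54 with a median of 4.35 without pregnancy, at least 39-fold apart. Dcx, doublecortin of migrating neurons, read 8.81, 9.02, 8.68, 9.01 and 8.91 and was bounded at 12.4-fold. Nppa, the atrial natriuretic peptide, rose by 4.41 ± 0.19, and Otx2, a homeobox gene of forebrain, was at least 3.73-fold higher. Col2a1 and Dcx increased between day 11 and day 12, by 1.22 ± 0.13 and 1.43 ± 0.11 (adjusted p = 2.82e-08 and 1.33e-11). A short list of neuronal and Schwann cell genes fits beside them: 4 of 6 measured rose, namely Uchl1 (3.00), Gap43 (2.91), Sox10 (2.46) and the neurofilament gene Nefm, which was at least 4.4-fold higher, while Mbp (-1.16) and Ngfr (-0.65) fell.

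Imprinted growth genes rose in 13 of 14 measured members of 20, with a median of 2.60 (2.24 at the bound). Peg3, a paternally expressed zinc finger gene, read 11.55, 11.94, 11.69, 11.79 and 11.52 at day 12 and from 5.79 to 6.68 with a median of 6.03 in the non-pregnant uterus, a rise of 5.57 ± 0.16 (adjusted p = 1.44e-23). Mest, paternally expressed in mesoderm, read 10.00, 9.73, 10.33, 10.21 and 10.00 against from 4.32 to 5.83 with a median of 4.72. Both kinds of imprint rose, the maternally expressed Cdkn1c (2.55), Grb10 (1.66) and Phlda2 as well as the paternally expressed Igf2 and Dlk1. Igf2r, the maternally expressed receptor that clears IGF2, did not pass the test (0.12, adjusted p = 0.517).

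**Figure D2:**
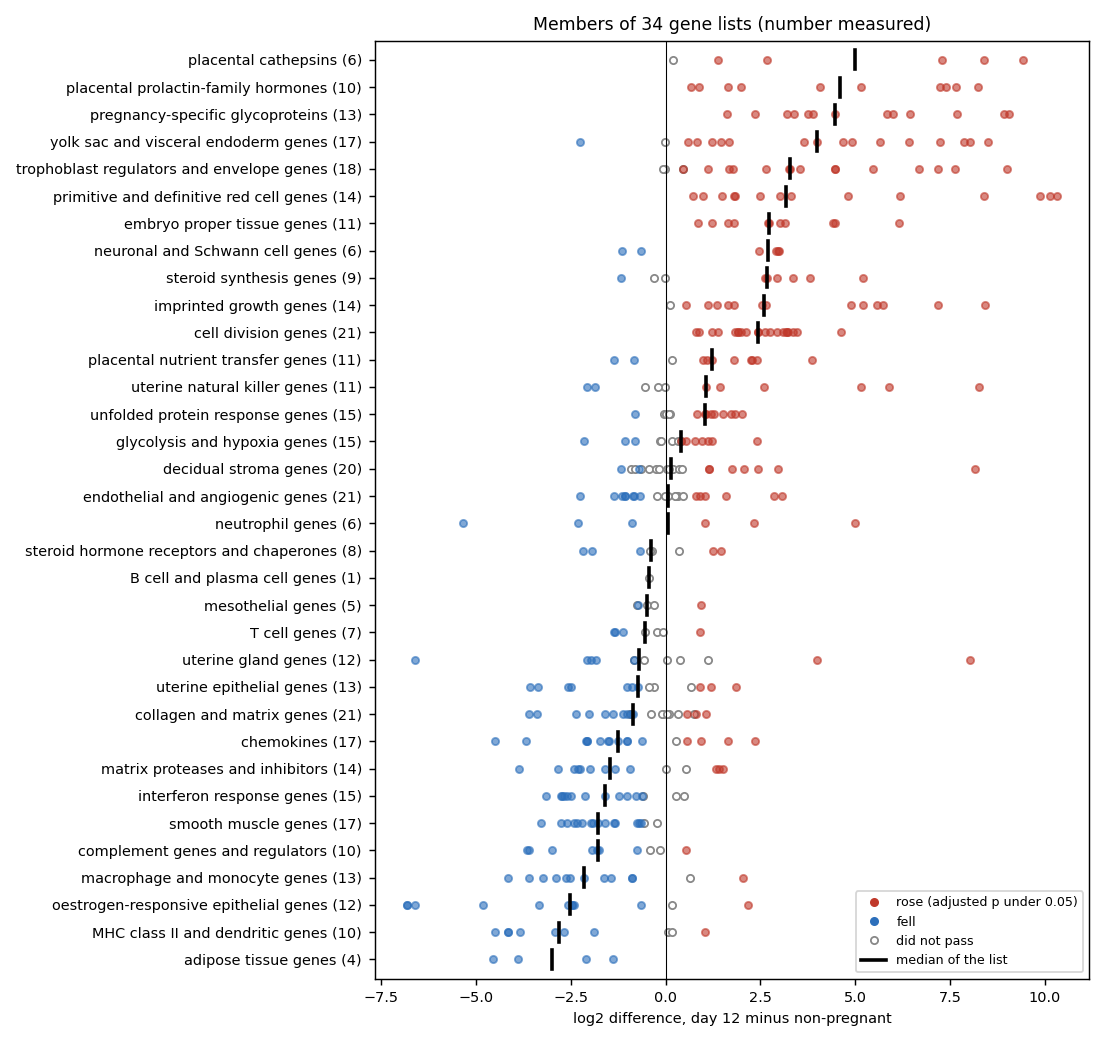
Log2 difference, day 12 minus non-pregnant (horizontal axis), of every measured member of 34 gene lists, with 1 point for each gene (red, rose; blue, fell; open, did not pass) and a bar at each list's median. Placental, yolk sac, red cell, embryo and cell division lists lie to the right, adipose, MHC class II, oestrogen-responsive and macrophage lists to the left, and the decidual, endothelial and neutrophil lists have medians within 0.2 of 0.

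Steroid synthesis genes rose in 6 of 9 measured members of 16 and fell in 1, with a median of 2.68. Cyp17a1, which makes androgens from progestins, read 9.55, 9.81, 9.96, 9.76 and 9.56 at day 12 and from 4.37 to 4.91 with a median of 4.47 without pregnancy, at least 22.3-fold apart. Hsd17b7, an enzyme of oestradiol and cholesterol synthesis, read 11.28, 11.20, 11.50, 11.55 and 11.55 against from 7.05 to 8.09 with a median of 7.75, a rise of 3.80 ± 0.24 (adjusted p = 9.77e-15). Cyp11a1, which cuts the cholesterol side chain and so starts steroid synthesis, was at least 4.56-fold higher than without pregnancy, but lower than at day 11 by 1.07 (adjusted p = 1.96e-05) and lower than at day 8 by 1.60. Akr1c18, which inactivates progesterone, rose by 3.37 ± 0.46, from non-pregnant values from 4.26 to 8.39 with a median of 4.80. Hsd17b1, an oestradiol-making enzyme, was undetected at day 12 and at least 1.5-fold lower.

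Of the receptors that read these hormones and their chaperones, 8 of 14 were measured, and 2 rose and 3 fell, shares near the 31.8% and 29% of all genes. The falls numbered 5 without day 12 array 5. Esr1, the oestrogen receptor, read 6.24, 6.45, 5.96, 6.72 and 6.68 at day 12 and from 7.65 to 9.82 with a median of 8.49 in the non-pregnant uterus, without overlap, and fell by 2.19 (SE 0.33, adjusted p = 1.35e-06). Pgr, the progesterone receptor, read 5.77, 5.87, 5.85, 5.51 and 6.07 against from 5.74 to 7.17 with a median of 6.56; the ranges overlapped, and the difference was -0.68 ± 0.19 (adjusted p = 0.00304). Greb1, an oestrogen receptor target, fell by 1.94, with non-pregnant array 4 at 11.07 and the others between 7.80 and 8.73, and by -1.48 without that array. The chaperones of steroid receptors Fkbp5 and Hsp90aa1 rose, by 1.47 and 1.25, with overlap in both, and the rise of Fkbp5 was 2.12 without non-pregnant arrays 4 and 6.

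Cell division genes stood out for their uniformity: 21 of 21 measured members of 26 rose, 19 of them past 2-fold, with a median of 2.44. Rrm2, the ribonucleotide reductase subunit that cells make while copying DNA, read 9.74, 9.57, 9.58, 9.34 and 9.22 at day 12 and from 4.32 to 5.40 with a median of 4.88 without pregnancy, a rise of 4.64 ± 0.18 (adjusted p = 6.52e-20). Birc5, survivin, read 11.19, 11.18, 11.03, 10.83 and 11.08 against from 7.02 to 8.22 with a median of 7.63, and rose by 3.46 ± 0.17. Cdc20 and Plk1, which drive the exit from and the passage through mitosis, rose by 3.21 and 2.93. Rrm2 was nonetheless lower than at day 11 by 1.26 and than at day 8 by 2.54 (adjusted p = 6.5e-05 and 5.55e-12). It was the 1 member that fell against either day. Against day 8, 8 of the 21 rose, beside 24.1% of all genes, and the median over the list was 0.54.

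Metabolic and secretory stress lists moved less. Glycolysis and hypoxia genes rose in 7 of 15 measured members and fell in 3, beside 31.8% and 29% of all genes. Pgam1 and Pgk1, enzymes of glycolysis, rose by 1.23 ± 0.21 and 1.11 ± 0.25, and Slc2a1 (2.40) and Ldha (0.52) rose too. The fallers were Vegfa (-1.06), Egln3 (-2.14) and Car9 (at least 1.18-fold), so the hypoxia genes had no common direction. Unfolded protein response genes, among them chaperones of the endoplasmic reticulum, rose in 9 of 15 measured members, with a median of 1.04. Sdf2l1 read 7.72, 7.55, 7.73, 7.59 and 7.08 at day 12 and from 5.51 to 5.96 with a median of 5.72 without pregnancy, and Creld2 rose by 1.51 ± 0.19. Herpud1, which serves the degradation of misfolded proteins, fell by 0.82, and 2 members fell without non-pregnant arrays 4 and 6. The stress transcription factors Ddit3, Atf4 and Xbp1 lay between -0.05 and 0.10 and did not pass the test.

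Decidual stroma genes held a middle position, since day 12 lay above the non-pregnant uterus for some of them and below day 8 for most. Of 20 measured members of 25, 7 rose, 2 fell and 11 did not pass, with a median of 0.13. The share that rose was near the 31.8% of all genes, while 29% of all genes fell. Against day 8, 17 of the 20 fell and 1 rose, where 23.3% of all genes fell and 24.1% rose. Prl8a2, decidual prolactin-related protein, read 13.03, 13.06, 13.14, 13.07 and 12.65 at day 12 and from 4.57 to 5.80 with a median of 4.61 without pregnancy, at least 214-fold apart (adjusted p = 8.81e-26). It had been 14.06 ± 0.17 at day 11 (SD, n = 4) and 13.91 ± 0.06 at day 8 (SD, n = 4), so that it was declining. Bmp8a, a bone morphogenetic protein, rose by 2.97 ± 0.42, with non-pregnant array 4 at 7.52 and the others between 4.28 and 4.68, and by 3.48 without array 4. Cryab, a small heat shock protein of decidual cells, read 9.45, 9.60, 9.59, 8.62 and 8.58 against from 5.76 to 8.51 with a median of 7.11, and Gja1, a gap junction connexin, 13.38, 13.38, 12.99, 13.19 and 13.19 against from 11.66 to 12.65 with a median of 12.00. Cryab and Gja1 were lower than at day 8 by 2.04 and 1.01. Nr2f2 and Igfbp4 were the members that fell against the non-pregnant uterus (-1.19 and -0.71), and 4 members fell without non-pregnant arrays 4 and 6, or without array 1, 4 or 5 alone.

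**Figure D3:**
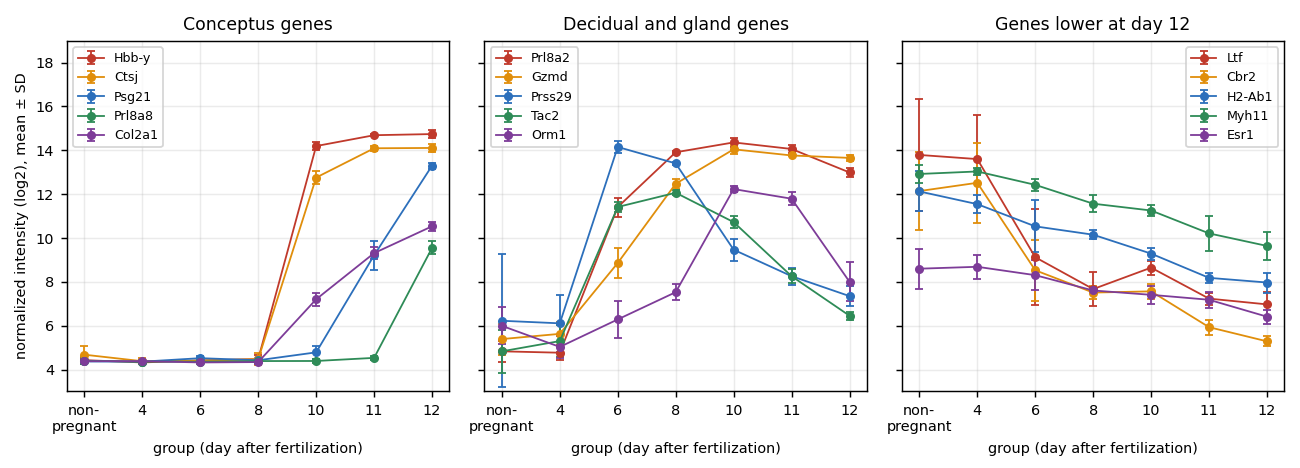
Normalized intensity (log2, vertical axis; mean ± SD over 4 to 6 arrays a group) of 15 genes from the non-pregnant uterus to day 12. Conceptus genes leave background between day 8 and day 12, Prl8a8 last. Genes of the decidual and gland panel peak between day 6 and day 10 and decline. In that panel Gzmd, a natural killer cell gene, declines little, from 14.0 at day 10 to 13.7 at day 12. Ltf, Cbr2, H2-Ab1, Myh11 and Esr1 lie lowest at day 12.

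Genes of uterine natural killer cells rose in 6 of 11 measured members of 19 and fell in 2, beside 31.8% and 29% of all genes. Their median was 1.05 (0.61 at the bound). The granzymes, serine proteases stored in the cells' granules, led. Gzmd read 13.84, 13.54, 13.56, 13.62 and 13.71 at day 12 and from 4.66 to 6.66 with a median of 5.27 without pregnancy, a rise of 8.26 ± 0.28 (adjusted p = 8.35e-22). Gzmg and Gzme were at least 35-fold and 20.3-fold higher, and Gzmf at least 1.53-fold. These granzymes are near copies, and their probes may share signal. Prf1, the pore-forming perforin, read 11.35, 11.19, 11.32, 11.22 and 11.57 at day 12 and from 9.38 to 10.96 with a median of 10.32 without pregnancy, a rise of 1.05 ± 0.24. Klrd1, a natural killer receptor chain, and the chemokine Ccl5 fell (-1.86 and -2.07), and Eomes did not pass the test.

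Of 15 T cell genes 7 were measured, of which 3 fell, 1 rose and 3 did not pass, beside 29% falls and 31.8% rises over all genes. The 3 measured chains of the CD3 complex fell and were undetected on all day 12 arrays: Cd3e was at least 1.88-fold lower, Cd3g 1.74-fold and Cd3d 1.43-fold. On the non-pregnant arrays Cd3e ran from 4.84 to 7.24 with a median of 6.11, close to background at its low end, and the groups overlapped. Foxp3, the factor of regulatory T cells, read 9.04, 8.86, 9.10, 8.62 and 8.90 at day 12 and from 8.48 to 9.30 with a median of 9.03 without pregnancy, the ranges overlapped, and the difference was -0.07 ± 0.14 (adjusted p = 0.676). Cd8b1 rose by 0.92 with its brightest probe, yet the mean over its detected probes gave -0.17 (adjusted p = 0.327), so its direction depends on the probe and no rise was left in the list by that measure. Of the B cell list 1 gene, Cd79b, was measured, and it did not pass the test (-0.44, adjusted p = 0.0651). It passed without non-pregnant array 4 (-0.57, adjusted p = 0.014), without array 6 (-0.51, 0.0424) and without both (-0.69, 0.00465).

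Macrophage and monocyte genes fell in 11 of 13 measured members of 17, with a median of -2.15, against 29% of all genes. Cd14, the lipopolysaccharide co-receptor, read 6.32, 6.35, 6.15, 5.84 and 5.82 at day 12 and from 8.39 to 11.27 with a median of 9.78 without pregnancy, and fell by 3.61 (adjusted p = 4.43e-09), with a difference of -4.22 without non-pregnant arrays 4 and 6. Aif1, also called IBA1, read 6.00, 5.80, 6.16, 5.66 and 6.01 against from 7.54 to 8.80 with a median of 8.65, and Mpeg1, which encodes perforin-2, fell by 2.89. Ly6c1 was the member that rose, by 2.04, and endothelial cells express it as well, while Csf1r did not pass (0.65). The mean over the list was 7.07 on non-pregnant array 4, 8.46 to 9.02 on the other 5, and 6.58 to 6.79 at day 12. Leaving out non-pregnant arrays 4 and 6 left the counts at 11 falls and 1 rise, and without array 5 there were 2 rises.

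Antigen presentation by MHC class II fell further, in 7 of 10 measured members of 13, with a median of -2.80. H2-Ab1, a beta chain, read 8.73, 7.98, 7.75, 7.53 and 7.86 at day 12 and from 10.32 to 12.67 with a median of 12.57 without pregnancy, and fell by 4.16 (adjusted p = 2.2e-10). H2-Eb1 read 7.72, 7.03, 6.83, 6.66 and 6.89 against from 9.78 to 12.14 with a median of 11.87, and H2-DMb1, which helps load peptides, 5.82, 5.33, 5.23, 5.34 and 5.22 against from 8.12 to 8.47 with a median of 8.33. No array of either group reached the other for these genes, although array 4 was the lowest non-pregnant array for both chains. The 7 that fell were the 3 classical chains with H2-DMa, H2-DMb1, Cd74 and Ciita, the class II transactivator, and the dendritic cell gene Batf3 rose (1.04).

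Complement, interferon and chemokine genes fell with them. All 3 chains of C1q, made largely by macrophages, fell. C1qa read 5.37, 5.15, 4.90, 5.07 and 5.50 at day 12 and from 6.84 to 8.86 with a median of 8.50 without pregnancy, and C1qb and C1qc fell by 3.60 and 3.64. Over the complement list 7 of 10 measured members fell and 1 rose. Of 15 measured interferon response genes, 12 fell and none rose, with a median of -1.59, although 2 rose when non-pregnant array 5 was left out. Irf1 read 8.82, 9.08, 9.02, 9.19 and 9.06 at day 12 and from 11.41 to 12.29 with a median of 11.78 without pregnancy, and fell by 2.77 (adjusted p = 1.2e-18). Oas2, an antiviral enzyme, fell by 3.15, and the differences of Gbp2, a GTPase induced by interferon, and Ifi27l2a were -2.67 and -2.59, and Isg15, Rsad2 and Bst2 did not pass. Among 17 measured chemokines 12 fell and 4 rose, with a median of -1.26, and 5 fell when only probes detected on every array of a group were kept. Ccl11, eotaxin, fell by 3.68, with a difference of -4.41 without non-pregnant arrays 4 and 6. Ccl27a rose by 2.36 ± 0.19, although it had been 1.85 higher at day 11 (adjusted p = 9.49e-08).

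Neutrophil genes split, 3 rising and 3 falling among 6 measured, beside 31.8% rises and 29% falls over all genes. S100a8, a calcium-binding protein of neutrophils that decidua and placenta also make, read 12.14, 11.99, 11.79, 12.28 and 11.66 at day 12 and from 4.32 to 10.59 with a median of 6.28 without pregnancy. Mpo, myeloperoxidase, rose by 2.33 and Cxcr2 by 1.04. Retnlg, a resistin-like gene of mature neutrophils, was undetected at day 12 and at least 24.8-fold lower, with non-pregnant array 4 at 4.45 and the others between 9.68 and 11.72, so that array 4 overlapped the day 12 range, and it passed without that array too (adjusted p = 1.6e-13). Mmp9, a gelatinase of neutrophils, fell by 2.30, and Csf3r was at least 1.43-fold lower.

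Oestrogen-responsive epithelial genes fell in 10 of 12 measured members of 17, with a median of -2.53. Ltf and Sprr2f have been given. Wfdc2, a secreted protease inhibitor, read 11.62, 11.71, 11.65, 11.70 and 11.84 at day 12 and from 13.87 to 14.57 with a median of 14.09 without pregnancy, and fell by 2.48 (adjusted p = 2.71e-12). Ly6d, a surface antigen of stratified epithelium, was undetected at day 12 and at least 3.17-fold lower, with overlap at the low end of the non-pregnant range. Car2, carbonic anhydrase 2, rose (2.17). The list mean was 7.29 on non-pregnant array 6, 9.93 to 11.39 on the other 5, and 6.88 to 7.15 on the day 12 arrays. Without arrays 4 and 6 the counts stayed at 10 falls and 1 rise.

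Epithelial genes at large were mixed, with 7 falls and 3 rises among 13 measured, beside 29% falls and 31.8% rises over all genes. Cldn3, a tight junction claudin, read 7.58, 6.61, 6.68, 7.03 and 7.10 at day 12 and from 9.74 to 11.00 with a median of 10.37 without pregnancy, and Fermt1, kindlin-1, fell by 3.58. Muc1, a surface mucin, fell by 2.59, although non-pregnant array 6, at 7.49, lay below the day 12 values of 8.43, 8.34, 8.17, 8.10 and 8.54, and the difference was -3.27 without array 6. Krt18, a simple keratin that trophoblast makes too, read 11.44, 11.59, 11.41, 11.42 and 11.26 at day 12 and from 8.90 to 10.18 with a median of 9.57 without pregnancy. Its partner Krt8 and the desmosomal Dsg2 also rose (1.19 and 0.89). Of 12 measured gland genes 5 fell and 2 rose, to be set beside the same 29% and 31.8% of all genes. Msx1, a homeobox gene of uterine epithelium, and Wnt7a, a Wnt ligand made there, fell by 1.96 and 1.82, and the rises were Ttr and Spink1. The implantation serine proteases Prss28 and Prss29 did not pass the test (-0.57 and 1.12). Non-pregnant array 6 read 10.84 for Prss28 and 12.23 for Prss29, far above the other 5, and without it Prss29 rose by 2.32 (adjusted p = 5.32e-06) and Prss28 turned from negative to 0.48, which did not pass (0.4).

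**Figure D4:**
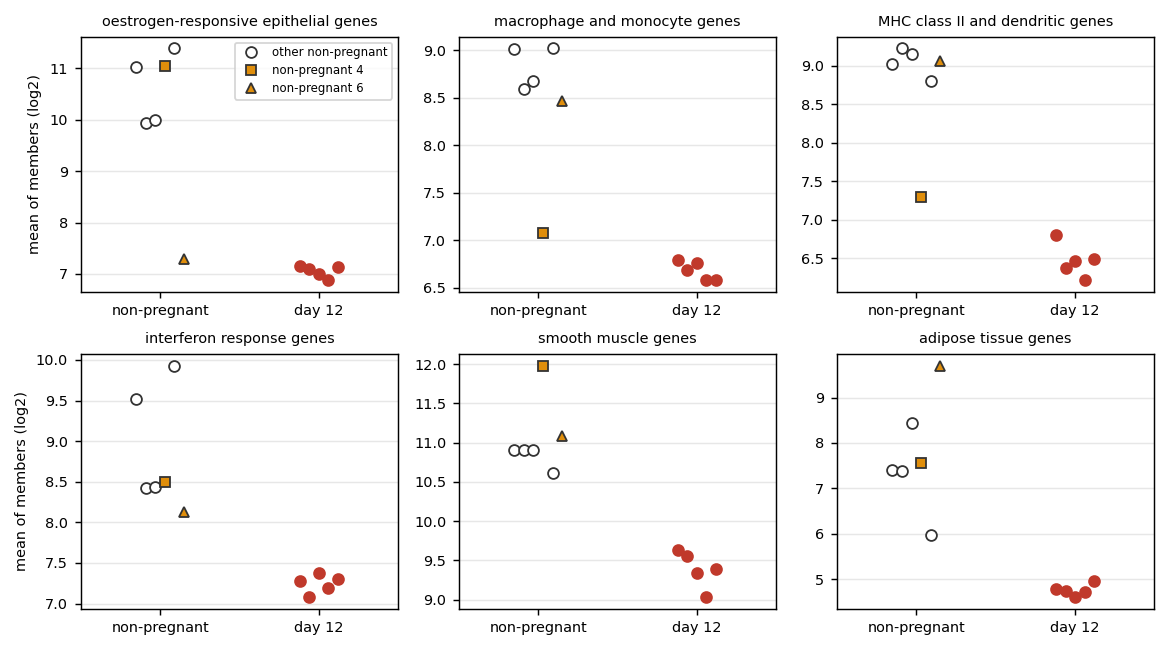
Mean normalized intensity (log2, vertical axis) over the measured members of 6 lists on each array, with non-pregnant arrays 4 (square) and 6 (triangle) marked. Day 12 arrays lie below every non-pregnant array in all 6 panels, array 6 is the low non-pregnant array for oestrogen-responsive genes (7.29) and array 4 for macrophage (7.07) and MHC class II genes (7.30).

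Contractile genes of smooth muscle, the tissue of the myometrium, fell in 15 of 17 measured members of 20, with a median of -1.77, and none rose. Myh11, smooth muscle myosin heavy chain, read 10.65, 9.92, 9.39, 9.04 and 9.20 at day 12 and from 12.49 to 13.70 with a median of 12.81 without pregnancy, and fell by 3.28 (adjusted p = 5.08e-12). Mylk, the kinase that activates it, read 12.33, 12.46, 11.90, 11.78 and 12.11 against from 14.03 to 14.72 with a median of 14.51, and Pgm5 and Lmod1, proteins of the contractile apparatus, differed by -2.76 and -2.61. Acta2, smooth muscle actin, fell by less, 0.71 (SE 0.11). It read 14.28, 14.33, 14.16, 13.76 and 14.11 at day 12 and from 14.66 to 15.07 with a median of 14.83 without pregnancy. Against day 8, 13 of the 17 fell as well, beside 23.3% of all genes.

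Collagens and matrix proteins fell in 10 of 21 measured members and rose in 3, beside 29% and 31.8% of all genes. Their median was -0.86, and without non-pregnant array 6 they fell in 8 and rose in 5. Tnxb, a tenascin, read 6.92, 6.55, 6.17, 6.09 and 6.79 at day 12 and from 9.13 to 11.09 with a median of 10.08 without pregnancy. Ogn, osteoglycin, fell by 3.38, Col6a1 by 2.37 and Dcn, decorin, by 1.01. The rises were Col4a1 and Col4a2, the chains of basement membrane (0.79 and 0.57), and Eln, elastin (1.08). Of 14 measured proteases and inhibitors 9 fell and 3 rose. Timp3 read 8.62, 8.77, 8.98, 9.15 and 9.12 against from 10.68 to 11.70 with a median of 11.57, and Timp2 fell by 2.25, whereas Timp1 read 9.58, 9.69, 9.79, 9.45 and 9.67 at day 12 and from 7.88 to 9.04 with a median of 7.97 without pregnancy and rose by 1.34.

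Vessel genes had no common direction: 6 of 21 measured rose and 8 fell, beside 31.8% and 29% of all genes, and the median was 0.07. Cdh5, the cadherin of endothelial junctions, read 11.29, 10.58, 10.32, 10.73 and 10.67 at day 12 and from 7.05 to 9.11 with a median of 7.35 without pregnancy, a rise of 3.08 ± 0.26 (adjusted p = 1.58e-11). Angpt2, which loosens vessel walls, read 11.36, 10.94, 11.00, 11.33 and 11.04 against from 7.65 to 9.06 with a median of 8.13, yet it was 1.13 lower than at day 11. Flt1, a receptor for VEGF and placental growth factor of which placenta secretes a soluble form, rose by 1.58 ± 0.16, and its difference from day 11 was 1.46 ± 0.17 (adjusted p = 2.58e-07). Vegfa, Lyve1 of lymphatic vessels and Vwf fell (-1.06, -1.37 and -1.15), and Pecam1, of all endothelium, did not pass the test (0.31).

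Markers of neighbouring tissues moved too. All 4 measured adipose genes fell, with a median of -3.0 (-2.41 at the bound): Adipoq, adiponectin, read 4.85, 4.81, 4.36, 4.63 and 5.57 at day 12 and from 7.20 to 11.85 with a median of 9.14 without pregnancy. Car3 and Cidec, of fat cells, were undetected at day 12, at least 10.9-fold and 2.56-fold lower, and Lep, leptin, fell by 1.38. The mean over these genes ranged from 5.98 to 9.71 on the non-pregnant arrays, highest on array 6, and from 4.60 to 4.95 at day 12. Ces1d and Cyp2e1, genes known from fat, fell at day 12 as the fat markers did. Among the non-pregnant arrays Cyp2e1 was highest on array 6 (11.87), like the fat markers, but Ces1d was lowest there (10.68). The part of fat tissue in those falls was not tested. Among 5 mesothelial genes 1 rose, Msln (0.94), while Krt14, Krt19 and Upk1b did not pass. Upk3b passed the test narrowly (-0.74, adjusted p = 0.0365) and did not pass under 12 alternatives, among them without non-pregnant array 4 (-0.52, adjusted p = 0.12), without array 6 (-0.62, 0.0856) and without both (-0.32, 0.346). Without arrays 4 and 6 together Krt14 fell (-2.60, adjusted p = 0.00348), and without array 3 Upk1b fell (-0.65, adjusted p = 0.00744).

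Set against day 8, when the implantation site is mainly decidua, day 12 differed in 2267 genes (21.8%), with 11.5% of all genes higher and 10.3% lower. Against day 11 it differed in 249 (2.39%), with 1.30% of all genes higher and 1.09% lower. Of the 1469 genes higher at day 12 than without pregnancy, 776 (52.8%) were also higher than at day 8, 86 (5.85%) were lower and 607 (41.3%) had not changed since. Of the 1458 lower genes, 459 (31.5%) were lower than at day 8 and 970 (66.5%) had not changed since then. Since day 11, 1299 of the higher genes (88.4%) and 1443 of the lower ones (99%) had not changed.

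The 3 largest rises since day 8 were those of the embryonic globins Hbb-y and Hba-x and the cathepsin Ctsj, each undetected at day 8. At day 12 they were at least 685-fold, 616-fold and 441-fold higher. The 3 largest falls since day 8 were those of Prss28, Prss29 and Tac2. Tac2, which encodes neurokinin B, read 6.59, 6.43, 6.32, 6.24 and 6.70 at day 12 and had been 12.06 ± 0.13 at day 8 (SD, n = 4), and fell by 5.61 (adjusted p = 4.52e-15). It was still above the non-pregnant uterus, by 1.62 ± 0.31, although non-pregnant array 6, at 6.83, overlapped the day 12 values and the other 5 lay between 4.33 and 4.61. Prss28 and Prss29 fell by 7.12 and 6.05 (adjusted p = 3.46e-08 and 1.29e-06).

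Within the last day the 3 largest rises were Prl8a8, Psg21 and Psg18 (3.80 ± 0.16), and the 3 largest falls were Orm2, Orm1 and Psca. Orm1 and Orm2 encode orosomucoids, acute phase proteins of plasma. Orm1 read 7.83, 8.95, 8.92, 7.20 and 7.12 at day 12, had been 11.79 ± 0.29 at day 11 (SD, n = 4), and fell by 3.79 (adjusted p = 8.84e-08). It overlapped the non-pregnant values, which ran from 4.89 to 7.39 with a median of 5.92, and still stood above them on average by 2.01 ± 0.38. Orm2 differed from day 11 by -4.25 and Psca, a surface antigen of epithelium, by -3.78 (adjusted p = 6.12e-05). Against the non-pregnant uterus Psca did not pass the test (-1.15, adjusted p = 0.0728), but it did without non-pregnant array 4 (-1.60, 0.00721), array 6 (-1.59, 0.00871) or both (-2.27, 1.45e-05). Orm1 and Orm2 are near copies, and 1 probe may read both.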

How the data were processed

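The deposited table of the authors holds, for 33 arrays, a bead-array intensity of each of 45281 probes that is not on a log scale, with a detection p-value beside it in the same deposited table. The deposited series matrix holds log2 values that the authors had normalized, which serve as an alternative only. By rank correlation each array of the matrix belonged to an array of the same group in the intensity table, in 16 of 33 cases (3 of these 11) under another replicate number, and the array numbers here are those of the intensity table. The scanner software is not given in the sources used here. Per the labels' protocols, Trizol-extracted, column-cleaned RNA was turned into biotinylated cRNA.

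The function nec of limma, with an offset of 16, corrected the background from the detection p-values, and the values were then quantile normalized and logged to base 2. Probes with detection p under 0.01 on at least 4 arrays were kept (21107), of which 15195 had 1 gene symbol. GEO's platform annotation named 15254 probes with 1 symbol and 5 with several, entrez identifiers of 15248 matched RefSeq, and 0 symbols changed. Each gene is represented by its brightest probe on average, which left 10412 genes. Of the other probes of a gene that passed together with it, 60 of 2071 had the opposite sign. The 5912 detected probes with no usable name were fitted apart.

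The linear model had 1 mean for each of the 7 groups and took in the 33 arrays (R 4.3.3; packages limma 3.58.1, statmod 1.5.0 and data.table in version 1.17.8), with moderated tests on 26 residual and 4.43 prior degrees of freedom and Benjamini-Hochberg adjustment over the 10412 genes. Figures used matplotlib 3.10.9 and pandas 2.3.3 under Python 3.11.15. Bounds for a gene at background throughout 1 group compare the other group's mean with that group's values lifted to the array floors, a floor being the lowest normalized signal among detected probes (4.97 to 6.03). Beyond probe detection, the number of arrays limits the precision. On simulated data with 10412 genes, 87 of 100 genes set 2-fold apart and 97 of 100 set 4-fold apart between day 12 and non-pregnant passed the test, as did 14 unshifted genes. The simulated noise was independent and normal, with 1 spread for each gene on all arrays, and no other genes were shifted. Arrays that stand apart and unequal spreads of the groups were not simulated, so these rates may not hold for the real data.

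The comparison, the 34 gene lists (402 of 586 genes measured) and the landmark genes were chosen with earlier results of these data known. The 163 named genes are the 10 largest rises and falls that changed without overlap and were detected in both groups, the 6 largest bounds each way, up to 4 members of each list by adjusted p, every member of lists of at most 6, landmarks, and the 3 largest rises and falls against days 8 and 11. Members that went against their list, or that are listed to complete a count, are named beside these and were chosen after their values were seen. The landmarks Prl3b1, H19 and Mki67 are not measured among these genes. Replicate numbers did not pair the arrays: the deviations of same-numbered non-pregnant and day 12 arrays correlated between -0.0812 and 0.0752, those of day 12 and day 11 between 0.029 and 0.153, and those of day 12 and day 8 between 0.0613 and 0.21, so that no comparison had every pair over 0.1. Non-pregnant arrays 2 and 3 were closest to each other, with a median absolute difference of 0.0864 against 0.124 for the next pair, and were kept apart.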

Additional observations from a re-analysis of the deposited data

Results flagged for a closer look

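In 38 of 273 gene and group pairs examined, over the 163 named genes and the groups in which at least 1 array detected them, the highest or lowest array lay far from the rest by Dixon's 95% criterion. Chance alone sets apart about 1 in 20 such pairs. Of the 38, 15 belonged to non-pregnant array 6, 12 to non-pregnant array 4, 6 to day 12 array 1, 4 to day 12 array 5 and 1 to day 12 array 4. The values below are log2 intensities, followed by the range of the other arrays of the group.

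Non-pregnant array 6 was the highest for Sct (6.14 against 4.34 to 4.60), Dlk1 (5.61 against 4.49 to 4.85), Ttr (5.76 against 4.38 to 4.83), Prss28 (10.84 against 4.34 to 4.97), Prss29 (12.23 against 4.25 to 6.39), Tac2 (6.83 against 4.33 to 4.61), Cdh5 (9.11 against 7.05 to 7.73) and Gap43 (6.57 against 4.44 to 4.97). It was the lowest for Cbr2 (8.78 against 11.98 to 13.82), Ltf (8.59 against 14.67 to 14.92), Tmem45b (9.10 against 11.50 to 12.90), Slc15a2 (7.71 against 9.23 to 10.13), Fabp3 (5.21 against 7.15 to 8.23), Muc1 (7.49 against 10.73 to 12.30) and Krt19 (7.63 against 9.89 to 10.54). Among these, the implantation protease genes Prss28 and Prss29 and the decidual peptide genes Sct and Tac2 were high on the array on which Ltf, Muc1 and other epithelial genes were low. The labels give no cycle stage or mating history for this array.

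Non-pregnant array 4 was the highest for Psg27 (6.21 against 4.44 to 4.76), Ctsr (5.33 against 5.06 to 5.14), Greb1 (11.07 against 7.80 to 8.73), Bmp8a (7.52 against 4.28 to 4.68), Lmod1 (9.64 against 8.07 to 8.59) and Msln (6.73 against 4.61 to 5.35). It was the lowest for H2-Eb1 (9.78 against 11.38 to 12.14), Aif1 (7.54 against 8.37 to 8.80), Mpeg1 (6.04 against 8.22 to 9.12), H2-Ab1 (10.32 against 12.03 to 12.67), H2-Aa (7.41 against 9.12 to 10.08) and Retnlg (4.45 against 9.68 to 11.72). Macrophage, MHC class II and neutrophil genes were thus low on the array that detected 13097 probes, the fewest of the 11.

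Day 12 array 1 was the highest for Cyp11a1 (7.86 against 7.26 to 7.41), H2-DMb1 (5.82 against 5.22 to 5.34), Msx1 (9.28 against 8.75 to 8.85) and Timp2 (11.38 against 10.17 to 10.52) and the lowest for Slc4a1 (12.75 against 13.21 to 13.35) and Ctsr (12.12 against 12.46 to 12.54). Day 12 array 5 was the highest for Fabp3 (11.11 against 11.06 to 11.07) and Wnt7a (6.16 against 5.93 to 5.99) and the lowest for Prl8a2 (12.66 against 13.02 to 13.14) and Sdf2l1 (7.08 against 7.55 to 7.73). Day 12 array 4 was the highest for Psg27 (12.79 against 12.41 to 12.51). Several of these gaps are under 0.5 on the log2 scale and stand out because the other 4 arrays lie close together.

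The difference from the non-pregnant uterus itself differed between day 11 and day 12 for 23 of the 163 named genes. It was tested as day 12 against day 11 with limma (adjusted p under 0.05 over 10412 genes and at least 2-fold). Over all genes the share was 2.39%. The 2 shares are not comparable, because Prl8a8, Psg21, Psg18, Orm2, Orm1 and Psca were named for their size in this same comparison. The log2 difference, day 12 minus day 11, was positive for Prl8a8 (5.02), Psg21 (4.09), Psg18 (3.80), Psg27 (3.52), Psg19 (3.18), Ctsm (2.42), Ceacam11 (2.16), Ctsq (1.70), Flt1 (1.46), Dcx (1.43), Cts6 (1.30), Col2a1 (1.22) and Afp (1.02). These are mainly placental glycoproteins, a prolactin-family hormone and cathepsins, with embryonic neuron, cartilage and yolk sac genes and the VEGF receptor gene Flt1 beside them. It was negative for Ly6c1 (-1.01), Cyp11a1 (-1.07), Prl8a2 (-1.07), Angpt2 (-1.13), Rrm2 (-1.26), Tac2 (-1.80), Ccl27a (-1.85), Psca (-3.78), Orm1 (-3.79) and Orm2 (-4.25). Prl8a8, Ctsm and Cts6 were at or near background at day 11, so their differences are fitted values and not bounds.

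Among the 5912 detected probes that carry no usable gene name, 1148 changed at day 12 against the non-pregnant uterus, 515 of them higher and 633 lower. They are in no gene list and are not described here.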

How the results depend on the processing

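The number of genes changed at day 12 against the non-pregnant uterus (2927), day 11 (249) and day 8 (2267) stayed within 1.5 times under cyclic loess, median scaling, no filter or a stricter filter on dim probes, the mean of a gene's probes, a fit of the compared groups alone, array weights and a trended robust prior. Without background correction it was 1388, 81 and 1087, and with the series matrix values 1403, 84 and 1081; the cause was not tested. Of these 1388 and 1403 genes, 1387 and 1401 were among the 2927. A 1.5-fold minimum gave 4906, 591 and 3951 genes and a 4-fold minimum 961, 38 and 709, as a looser or stricter limit must. Leaving out each array in turn gave 2834 to 2967, 208 to 273 and 2219 to 2308, and without both non-pregnant arrays 4 and 6, or with arrays 2 and 3 averaged, alternatives chosen after seeing the data, day 12 against non-pregnant gave 2958 and 2959. With the replicate number as a block the counts were 2900, 287 and 2289, and since the numbers do not pair the arrays by the labels or in every pair, the block is given here only.

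The share of higher genes among those changed since day 11 was 54.2%, 38.3% without background correction, 64.8% with median scaling and 36.9% with the series matrix values. Against the non-pregnant uterus, median scaling put the median of all genes at 0.08. Among the values of single genes and list counts, Cd8b1 reversed to -0.17 (adjusted p = 0.327) with the mean of its detected probes, from 0.92. The call was lost for 3 genes in 15 cases: Upk3b in 12 (adjusted p from 0.0526 to 0.346), Pgr with median scaling (0.126) and with the replicate block (0.0561), and Ngfr with median scaling (0.241). It was gained for 6 genes in 24 cases, Cd79b and Psca in 7 each, Prss29 in 4, Upk1b in 3, Krt14 in 2 and Krt19 in 1. List counts moved by over 1.5 times in 52 cases, and 5439 values of genes and lists did neither. The stricter filter on dim probes took the falling T cell and neutrophil members from 3 each to 0, chemokines from 12 to 5, gland genes from 5 to 3, natural killer genes from 2 to 1 and steroid synthesis genes from 1 to 0, because it drops genes that some array did not detect. Median scaling took the falling vessel genes from 8 to 3 and the rising glycolysis genes from 7 to 4. Array weights took the falling decidual members from 2 to 7, the rising collagen genes from 3 to 5 and the rising interferon genes from 0 to 2. Genes near the floor of the arrays have bounds in place of folds, and small differences there were not detectable at this signal.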
